A study of Homo sapiens with 12 samples.

Results

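The genes BCL2, BCL2L1, MCL1 and BCL2L2 encode the survival proteins BCL2, BCL-XL, MCL1 and BCL-W. They were taken by symbol from a table of gene counts, and all 4 of 4 were found among 13820 genes. All libraries came from the mantle cell lymphoma cell line Z-138, in 4 groups of 3 libraries each. The first 2 groups carried an shRNA against SMARCA4, the motor subunit of SWI/SNF nucleosome remodellers, and received 3 µM ibrutinib plus 3 µM venetoclax in one group and DMSO in the other. The remaining 2 groups carried a control shRNA and received the same drug pair or DMSO. Doxycycline was present in all 4 groups. The labels give 1 cell line and 1 name per shRNA, so reduced SMARCA4 and anything else this hairpin does cannot be told apart. How long the cells were treated is not given in the sources used here.

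Survival members of the BCL2 family sit on the outer mitochondrial membrane and hold the pore formers BAX and BAK1 in check. BH3-only proteins such as BIM, PUMA and NOXA bind them and release that restraint. Venetoclax occupies the groove of BCL2 and not that of BCL-XL or MCL1, and high BCL-XL or MCL1 is a known way for lymphoma cells to tolerate it. Ibrutinib inhibits BTK, a kinase of the B cell receptor. Libraries were read from the 3' ends of transcripts, so the counts measure RNA and not protein, and levels of different genes are not ranked against each other here.

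SMARCA4 was checked first. It had 174.8 ± 8.66 CPM in knockdown libraries under drug and 170.0 ± 9.67 in knockdown libraries in DMSO, against 609.8 ± 28.2 in control libraries under drug and 576.8 ± 21.6 in control libraries in DMSO (CPM, counts scaled to library size with TMM factors, ± SD, n = 3). Total counts were 7279503 to 10151679 in 11 libraries and 22528537 in knockdown DMSO replicate 3. The share of 18S and 28S RNA was 7.196% to 8.982% in knockdown libraries under drug, 10.04% to 11.055% in knockdown DMSO, 10.204% to 10.805% in control libraries under drug and 8.859% to 9.474% in control DMSO. Of 8 B cell and mantle cell lymphoma markers, 7 were tested. Their summed level was 4193 to 4896 CPM in knockdown libraries and 4925 to 5761 CPM in control libraries. This sum does not show the direction of single markers. With the knockdown, 1 rose and 5 fell under drug, and 1 rose and 6 fell in DMSO (5 with DESeq2) at an edgeR adjusted p under 0.05. Of all genes, 31.1% and 31.3% passed. The markers' median log2 change was -0.579 under drug and -0.415 in DMSO. CD22 was not analysed here. T and NK cell markers moved with the knockdown: their 3 tested genes of 7 summed to 1.75 to 3.54 CPM in knockdown libraries and 17.5 to 21.4 CPM in control libraries. The knockdown sums lay not far above 1.15 CPM, the level of the low-count filter for a single gene, so this fall is measured near the floor. CD4 and PRF1 had knockdown means of 0.285 to 0.550 CPM, under that level, and control means of 1.17 to 2.39 CPM, above it. Both were thus kept through the control libraries, so the filter itself favoured their fall. CD3G had means of 1.90 and 1.64 CPM in knockdown libraries under drug and in DMSO. Its control means were 16.5 and 15.8 CPM. CD3D, CD3E, CD8A and NKG7 were not analysed here. The 5 monocyte and 4 erythroid markers were not analysed here. Of 6 fibroblast and epithelial markers 2 were tested, at a sum of 193 to 217 CPM in knockdown and 204 to 238 CPM in control libraries. COL1A1, the smaller part of that sum, had 14.8 ± 0.498 and 14.98 ± 0.185 CPM in knockdown libraries under drug and in DMSO, against 25.6 ± 0.405 and 21.1 ± 2.26 CPM in control libraries, and fell by 0.79 and 0.50.

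BCL2L1 (ENSG00000171552), the gene of BCL-XL, was the survival member that differed most between the shRNAs among the 3 with at least 159 counts in every library. It had 41.2, 43.3 and 40.3 CPM in the knockdown libraries under drug, against 18.5, 24.2 and 27.1 CPM in the control libraries under drug. In DMSO it had 44.6, 46.7 and 47.4 CPM in knockdown libraries, against 23.2, 22.9 and 23.5 CPM in control libraries. Every knockdown library lay above every control library, whatever the treatment. These values came from 314 to 1068 counts per knockdown library and 159 to 232 per control library.

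**Figure D1:**
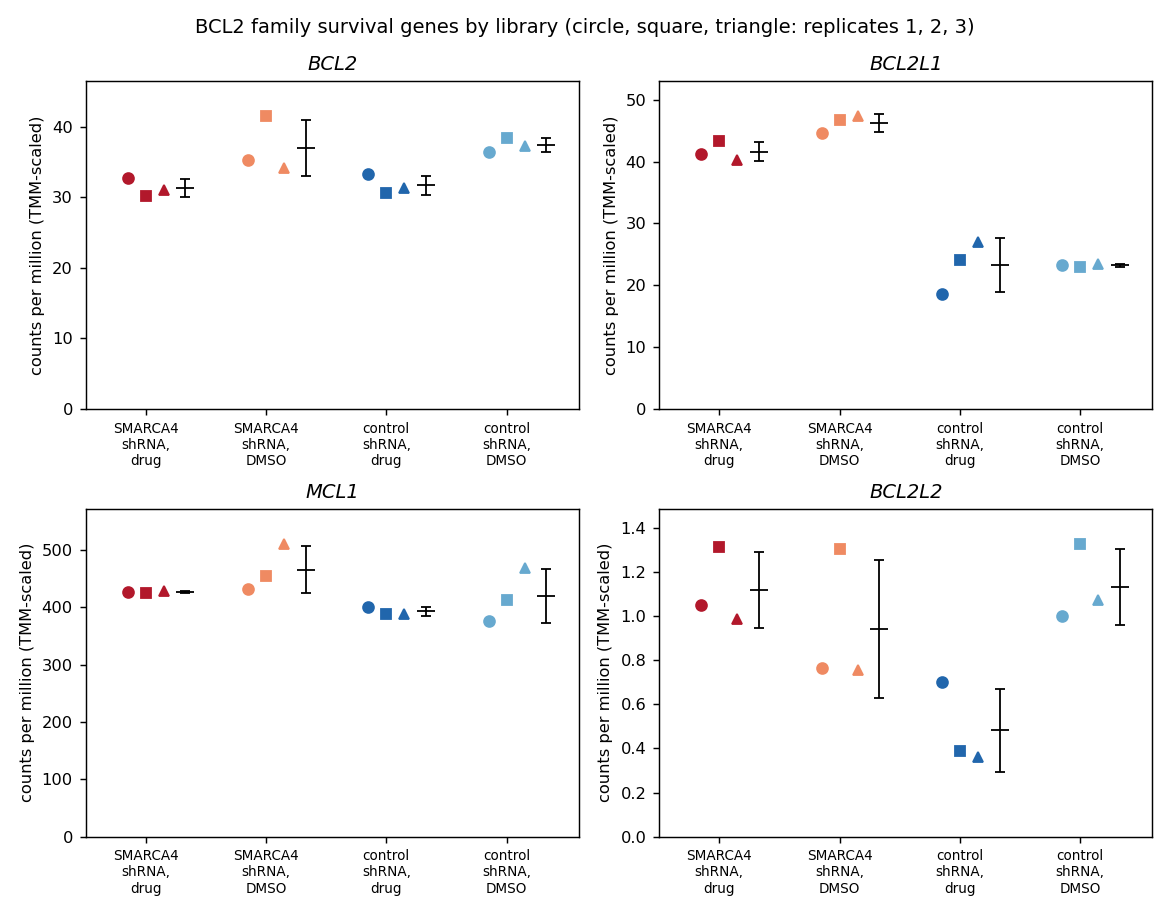
Level of each survival gene in every library, in TMM-scaled CPM from 0, with the 3 replicates of a group as circle, square and triangle and the group mean ± SD as a black bar. BCL2L1 lay at 40.3 to 47.4 CPM in the 6 knockdown libraries and 18.5 to 27.1 CPM in the 6 control libraries, while the BCL2 points separate by treatment and the BCL2L2 axis ends below 2 CPM.

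Between shRNAs BCL2L1 rose by 0.84 on the log2 scale under drug (SE 0.10, 95% interval 0.64 to 1.04, edgeR adjusted p = 4.24e-08), a 1.79-fold change. In DMSO its rise was 1.995-fold (95% interval of the log2 change 0.81 to 1.185). Averaged over both treatments it rose by 0.92 (SE 0.07, adjusted p = 7.64e-13), higher in 6 of 6 libraries than in any of the 6 control libraries. The knockdown changed many genes: 31.1% of 12602 passed the threshold under drug (14.8% higher, 16.3% lower), 31.3% in DMSO (15.1% higher, 16.2% lower) and 44.3% averaged over treatments (21.7% higher, 22.6% lower). Passing is therefore common, and the size says more: of the 1899 genes called higher in DMSO, 326 rose further than BCL2L1, and of the 1860 called higher under drug, 456 did. In bulk RNA, fewer cells of a type and less RNA per cell cannot be told apart. The part of the B cell and mantle cell lymphoma markers, of the T and NK cell markers, of COL1A1 and of the 18S and 28S share in this difference was not tested.

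The drug left no called change in BCL2L1. Its log2 change was -0.156 (95% interval -0.33 to 0.02, adjusted p = 0.557) in knockdown cells and -0.001 (95% interval -0.215 to 0.21, adjusted p = 0.999) in control cells, so a rise of more than 0.21 or a fall of more than 0.33 lies outside these intervals. Among all genes 1.29% passed for the drug in each of these comparisons, with 0.738% higher and 0.548% lower in knockdown cells and 0.738% higher and 0.555% lower in control cells. The interaction subtracts the control cells' drug change from that of the knockdown cells. It was -0.155 (95% interval -0.43 to 0.12, adjusted p = 0.974), and 0.0238% of genes passed it, 0.00794% higher and 0.0159% lower. The ordered levels were knockdown DMSO, knockdown under drug, then control under drug and control DMSO at 23.25 ± 4.34 and 23.22 ± 0.285 CPM. Neighbours within an shRNA did not differ beyond the test's threshold. In knockdown cells the 3 drug libraries, at 40.3 to 43.3 CPM, nevertheless lay below the 3 DMSO libraries, at 44.6 to 47.4 CPM.

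The control libraries under drug were the least even for BCL2L1. Their SD was 0.28 on the log2 scale where counting alone would give 0.106, while the control DMSO libraries had 0.018 against 0.101 from counting. The lowest, replicate 1 at 18.5 CPM, is the library whose treatment was assigned by elimination. Without it, the knockdown rise under drug was 0.70 (adjusted p = 1.202e-06) and the drug's log2 change in control cells was 0.14 (adjusted p = 0.807). The interaction and the interval for control cells given above include this library. Leaving out each library in turn gave an interaction of -0.296 to -0.0223 for BCL2L1.

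The bases before the start of BCL2L1 are shown because it is the member called higher with the knockdown both under drug and in DMSO. Of the 4 genes, 2 (BCL2L1 and BCL2) have entries in the RefSeq promoter table (GRCh38.p14, another build than the authors' hg19). The bases from 250 to 27 before the upstream of 2 BCL2L1 starts, all outside exons of the gene in GENCODE 29, lie at chr20:31723990-31724213 on the minus strand and read, 5′ to 3′:
BCL2L1 upstream: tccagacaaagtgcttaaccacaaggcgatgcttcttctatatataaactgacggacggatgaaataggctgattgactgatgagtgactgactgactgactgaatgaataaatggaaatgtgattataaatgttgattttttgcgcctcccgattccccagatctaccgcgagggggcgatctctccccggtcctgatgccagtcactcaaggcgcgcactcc
BCL2L1 ETS match: ttgccgcggcaCCGGAAGTgactgagcttg
A search of both strands of the 300-base windows (250 before to 50 after the start) used 5 motifs, none of which contains another: TGACGTCA (the CRE bound by ATF and CREB factors), TGACTCA (AP-1), TTCNNNGAA (STAT), CCGGAAGT (ETS) and TGATGCAA (ATF4 with C/EBP). The ETS motif, in capitals in the second sequence (chr20:31723936-31723965, minus strand), began at base 10 of the transcript, in 1 of the 2 BCL2L1 windows and not in that of BCL2, and 4.14% of all 35116 windows hold it. The other 4 motifs were in neither BCL2L1 window nor in that of BCL2, and are held by 1.85% (CRE), 4.95% (AP-1), 7.66% (STAT) and 0.866% (ATF4) of all windows. Counts from 3' ends do not tell which start was used.

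BCL2 (ENSG00000171791), the target of venetoclax, separated the libraries by treatment and not by shRNA. It had 32.7, 30.2 and 30.95 CPM in knockdown libraries under drug, against 35.2, 41.5 and 34.1 CPM in knockdown DMSO libraries. Control cells had 33.2, 30.6 and 31.3 CPM under drug, against 36.4, 38.4 and 37.2 CPM in DMSO. All 6 libraries under drug lay below all 6 in DMSO.

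Averaged over both shRNAs, BCL2 fell by 0.23 under drug (SE 0.06, 95% interval -0.35 to -0.11, edgeR adjusted p = 0.0271), a 0.852-fold level, where 2.82% of all genes passed, 1.43% higher and 1.4% lower. Of the 176 genes called lower, 119 fell further. Within each shRNA the sizes were alike but neither passed: -0.228 in knockdown cells (SE 0.08, adjusted p = 0.266) and -0.234 in control cells (SE 0.09, adjusted p = 0.286), with an interaction of 0.005 (95% interval -0.24 to 0.25). The averaged call rests on several libraries. It ended with DESeq2 (-0.23, adjusted p = 0.0507) and without knockdown replicate 2 under drug (-0.22, 0.0593), knockdown replicate 3 under drug (-0.23, 0.0574), knockdown DMSO replicate 2 (-0.19, 0.1003), control replicate 2 under drug (-0.22, 0.0740) or control DMSO replicate 2 (-0.22, 0.0733).

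The knockdown gave BCL2 a log2 change of -0.02 under drug (95% interval -0.205 to 0.16) and -0.03 in DMSO (95% interval -0.195 to 0.14). A change in BCL2 RNA of the size seen for BCL2L1 lies outside these intervals. From lowest to highest, the levels were 31.3 ± 1.27 CPM in knockdown cells under drug, 31.7 ± 1.35 in control cells under drug, 36.9 ± 3.97 in knockdown DMSO and 37.35 ± 1.01 in control DMSO, and the neighbours of 1 treatment did not differ beyond their spread.

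**Figure D2:**
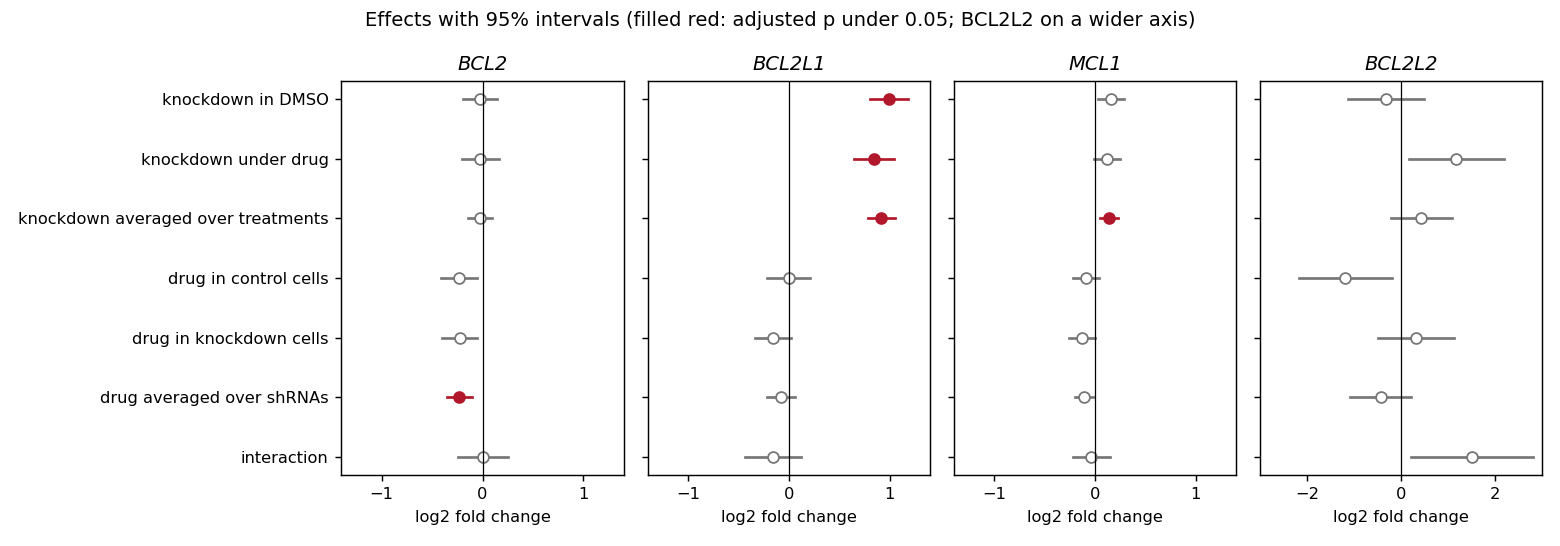
Log2 fold change of each survival gene (points) with its approximate 95% interval (lines) in 7 comparisons, filled red where the adjusted p is under 0.05. BCL2L1 is called in the 3 knockdown comparisons, at 0.84 to 0.996, MCL1 in the averaged knockdown comparison at 0.14 and BCL2 in the averaged drug comparison at -0.23, and the intervals of BCL2L2 are drawn on a wider axis.

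MCL1 (ENSG00000143384) encodes a short-lived survival protein whose level is set in large part by its turnover. Under drug it had 426.3, 424.6 and 429.3 CPM in knockdown libraries, against 401.5, 389.3 and 387.8 CPM in control libraries, without overlap. This difference did not pass the threshold (edgeR adjusted p = 0.1595), and how many of all genes separate likewise was not counted. In DMSO MCL1 had 432.5, 454.9 and 510.8 CPM in knockdown libraries, against 376.5, 413.0 and 469.1 CPM in control libraries, and the groups overlapped. Under drug its SD on the log2 scale was 0.008 in knockdown and 0.027 in control libraries, where counting alone gives 0.024 and 0.025. The knockdown libraries under drug were thus closer together than counting alone gives. In DMSO the SD was 0.12 and 0.16, above the 0.020 and 0.024 that counting alone gives.

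MCL1 rose with the knockdown by 0.14 averaged over treatments (SE 0.045, 95% interval 0.046 to 0.23, edgeR adjusted p = 0.0125), a 1.10-fold level. Of the 2732 genes called higher in that comparison, 2628 rose further, and 21.7% of all genes were called higher. This call ended without knockdown DMSO replicate 3, the deepest library (0.101, adjusted p = 0.0663), and without control DMSO replicate 1 (0.102, adjusted p = 0.0671). Under drug alone the log2 change was 0.12 (adjusted p = 0.1595), but 0.20 (adjusted p = 0.0155) with library totals as scaling. In DMSO alone it was 0.155 (adjusted p = 0.0585), which passed in 8 of 21 alternatives, among them without control DMSO replicate 3 (0.24, adjusted p = 0.00401), and was 0.082 (adjusted p = 0.401) without knockdown DMSO replicate 3 and 0.083 (adjusted p = 0.3975) without control DMSO replicate 1. The drug gave -0.13 in knockdown cells (95% interval -0.26 to -0.002, adjusted p = 0.4665) and -0.09 in control cells (95% interval -0.22 to 0.035, adjusted p = 0.690), neither past the threshold. In knockdown cells the drug libraries, at 424.6 to 429.3 CPM, nevertheless lay below the DMSO libraries, at 432.5 to 510.8 CPM. The highest group was knockdown DMSO at 466.1 ± 40.3 CPM and the lowest was control under drug at 392.8 ± 7.51, and between them knockdown under drug (426.7 ± 2.39) and control DMSO (419.5 ± 46.6) lay within the spread of the second.

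BCL2L2 (ENSG00000129473), the gene of BCL-W, held few counts. There were 8, 11 and 9 counts in knockdown libraries under drug and 7, 12 and 17 in knockdown DMSO libraries, against 6, 3 and 3 in control libraries under drug and 10, 11 and 9 in control DMSO libraries. Only 3 of the 12 libraries reached the filter's level of 1.15 CPM, at 1 each in the knockdown groups and control DMSO. In control cells the 3 drug libraries lay below the 3 DMSO libraries (0.483 ± 0.188 against 1.13 ± 0.172 CPM). The log2 change there was -1.19 (SE 0.49, adjusted p = 0.360). Under drug, knockdown libraries (1.117 ± 0.173 CPM) lay above control libraries, with a log2 difference of 1.17 (SE 0.49, adjusted p = 0.0701) that passed with library totals as scaling (1.25, adjusted p = 0.0498). In DMSO the knockdown gave -0.33 (SE 0.39, adjusted p = 0.576), and the drug gave 0.31 in knockdown cells (SE 0.40, adjusted p = 0.881). With 12 to 36 counts per group, none of the 7 comparisons of BCL2L2 passed in the reported fit. In GENCODE 29 the gene lies under a readthrough, BCL2L2-PABPN1, on the same strand and under HOMEZ and PPP1R3E on the other, and how the counting split such reads is not given in the sources used here. BCL2L1 has an antisense neighbour, ABALON, which was not analysed here.

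The balance of the survival genes was followed as the ratio of 2 genes' counts in the same library, which does not depend on how libraries are scaled. There were 126.1, 143.5 and 130.1 BCL2L1 counts per 100 BCL2 counts in knockdown libraries under drug, against 55.8, 78.9 and 86.5 in control libraries under drug. In DMSO there were 126.7, 112.6 and 138.9 in knockdown libraries, against 63.7, 59.75 and 63.1 in control libraries. Each of the 6 knockdown libraries lay above each of the 6 control libraries. On the log2 scale it was higher with the knockdown by 0.88 under drug (pooled SD 0.246) and by 1.01 in DMSO (pooled SD 0.11). Drug and DMSO libraries overlapped in knockdown cells (0.08, pooled SD 0.13). In control cells they overlapped (0.22, pooled SD 0.24) through replicate 1 under drug, the library assigned by elimination. Without it the other 2 drug libraries lay above the 3 DMSO libraries by 0.41, and the knockdown difference under drug was 0.69.

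Against MCL1 the shift was also toward BCL2L1. There were 9.67, 10.2 and 9.38 BCL2L1 counts per 100 MCL1 counts in knockdown libraries under drug, against 4.62, 6.20 and 6.98 in control libraries under drug. In DMSO there were 10.3, 10.3 and 9.27 in knockdown libraries, against 6.16, 5.56 and 5.01 in control libraries. The differences were 0.74 under drug (pooled SD 0.22) and 0.84 in DMSO (pooled SD 0.12), again with no overlap. Drug and DMSO libraries overlapped in knockdown cells (-0.03) and, through the same replicate 1 under drug, in control cells (0.07). Without that library the control cells' drug libraries lay above their DMSO libraries by 0.24, and the knockdown difference under drug was 0.57.

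The libraries had 7.67, 7.11 and 7.21 BCL2 counts per 100 MCL1 counts in knockdown cells under drug, against 8.275, 7.86 and 8.07 in control libraries under drug. These groups did not overlap, with a difference of -0.14 (pooled SD 0.048). Counting alone gives each of these ratios an SE of 0.089 to 0.097 on the log2 scale. The pooled SD is smaller than that and understates the uncertainty of the difference. In DMSO there were 8.14, 9.115 and 6.675 in knockdown libraries, against 9.67, 9.30 and 7.94 in control libraries, and the groups overlapped. No p is given for these ratios, since the 3 genes were chosen with their levels known.

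**Figure D3:**
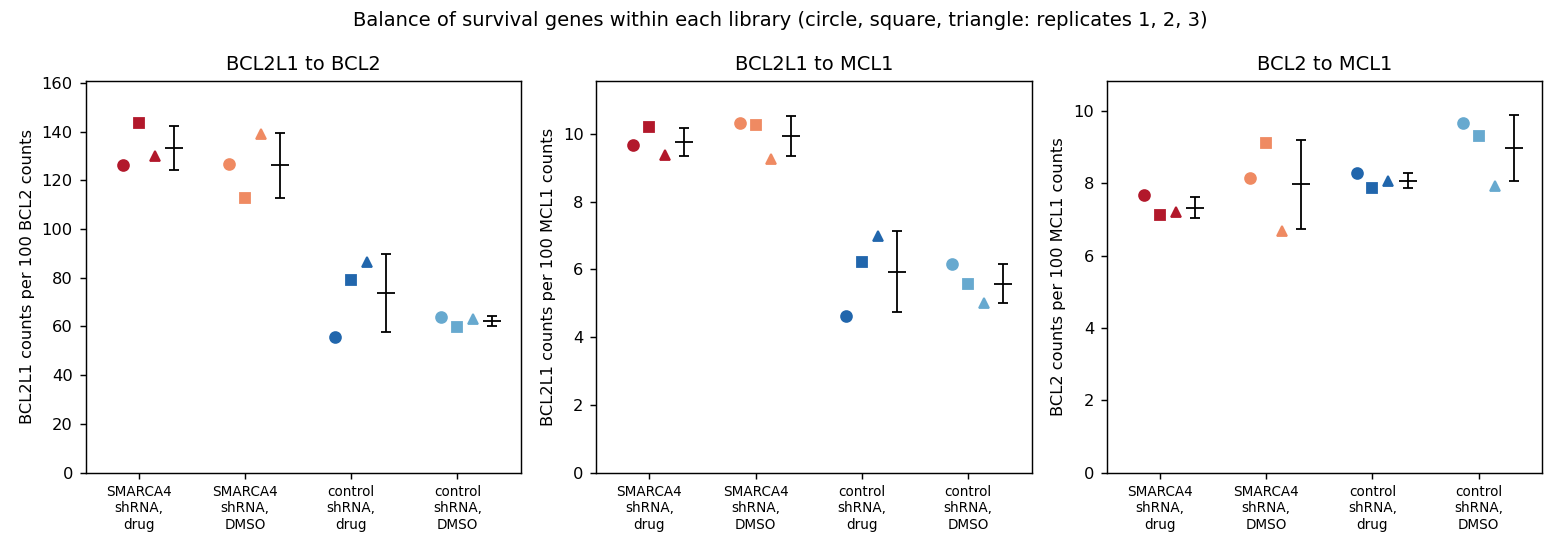
Counts of 1 survival gene per 100 counts of another in each library (axes from 0), with replicates 1, 2 and 3 as circle, square and triangle and the group mean ± SD as a black bar. BCL2L1 per 100 BCL2 lies at 112.6 to 143.5 in the 6 knockdown libraries and 55.8 to 86.5 in the 6 control libraries, and BCL2 per 100 MCL1 stays between 6.675 and 9.67 throughout.

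The partners of the survival proteins moved in several directions. BH3-only genes, whose products bind the survival members, had 3 of 9 tested genes higher and 1 lower with the knockdown under drug, and 4 higher and 0 lower in DMSO, where 31.1% and 31.3% of all genes passed. The list's median log2 change was 0.08 under drug and 0.18 in DMSO, against 0.002 and 0.004 over all genes. BBC3, the gene of PUMA, had 63.3 ± 5.47 and 62.0 ± 2.13 CPM in knockdown libraries under drug and in DMSO, against 45.5 ± 5.01 and 44.5 ± 3.51 CPM in control libraries, and rose by 0.475 (adjusted p = 3.92e-05) and 0.48 (adjusted p = 2.02e-05). BAD, a BH3-only gene whose product binds BCL2 and BCL-XL, rose by 0.38 and 0.62. HRK rose by 0.895 under drug and by 0.52 in DMSO at levels under 10 CPM, and the call in DMSO ended with DESeq2 (adjusted p = 0.0770). BMF fell by 0.51 under drug, with overlapping libraries, and BNIP3 rose by 0.40 in DMSO. For the drug, 0 of 9 passed in either shRNA by edgeR, DESeq2 or limma-voom. With 1.29% of all genes passing in each by edgeR, this does not set the list apart. An unadjusted edgeR p under 0.05 was held by 2 in knockdown cells and 1 in control cells. Of all 12602 genes, 1316 and 1266 had one. BCL2L11, the gene of BIM, was not analysed here.

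Of 5 other multi-domain members tested, 1 rose and 1 fell with the knockdown under drug (31.1% of all genes passed), and 1 rose and 0 fell in DMSO (31.3% of all genes), with medians of -0.10 and -0.05. BCL2L12 rose by 0.155 under drug, a call that ended with DESeq2 (adjusted p = 0.0522), and by 0.24 in DMSO. BCL2L13 fell by 0.285 under drug. The pore formers BAX and BAK1 did not pass: BAX had 38.9 ± 3.41 and 47.8 ± 4.04 CPM in knockdown libraries under drug and in DMSO, against 41.75 ± 1.04 and 43.65 ± 4.89 CPM in control libraries. The drug gave 0 of 5 past the threshold in either shRNA by the same 3 tools, beside 1.29% of all genes in each by edgeR. In each shRNA 1 was under an unadjusted edgeR p of 0.05, beside 1316 (knockdown) and 1266 (control) of all 12602 genes. BOK, BCL2L14 and the survival genes BCL2A1 and BCL2L10 were not analysed here.

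Genes that act on MCL1 protein turnover had 9 tested members. With the knockdown, 1 rose and 0 fell under drug, and 1 rose and 1 fell in DMSO (medians 0.10 and 0.015), beside 31.1% and 31.3% of all genes. BTRC, a substrate receptor of an SCF ubiquitin ligase, rose by 0.555 under drug and by 0.29 in DMSO, where the call ended with DESeq2 (adjusted p = 0.0704). The ubiquitin ligase gene HUWE1 fell by 0.21 in DMSO. USP9X and FBXW7 did not pass in any of the 7 comparisons. Drug changes passed in 0 of 9 in either shRNA by the 3 tools, beside 1.29% of all genes in each by edgeR. Under an unadjusted edgeR p of 0.05 were 1 in knockdown cells and 0 in control cells, beside 1316 and 1266 of all 12602 genes.

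Of 16 regulators known to act on BCL2, BCL2L1 or MCL1 (15 transcription factors and the kinase CDK9), 4 rose and 1 fell with the knockdown under drug, and 5 rose and 3 fell in DMSO (medians 0.08 and 0.09), beside 31.1% and 31.3% of all genes. STAT5A, a STAT factor known to activate BCL2L1, had 0.717 ± 0.103 and 0.845 ± 0.3165 CPM in knockdown libraries under drug and in DMSO, against 4.04 ± 0.758 and 3.85 ± 0.340 CPM in control libraries, and fell by 2.47 and 2.30. Its knockdown means lay under the filter's level of 1.15 CPM and its control means above it. The gene was thus kept through the control libraries, and the size of its fall is uncertain. STAT5B, on the same list, went the other way. It rose by 0.38 in DMSO (edgeR adjusted p = 0.00981). Under drug its rise of 0.17 did not pass (adjusted p = 0.316). Mean STAT5B levels were 20.7 and 23.3 CPM in knockdown libraries under drug and in DMSO. Control libraries had 18.4 and 18.1 CPM. MYB, a factor of immature blood cells, rose by 0.47 and 0.395. The NF-kB subunit gene NFKB2 rose by 0.35 and 0.36, and RELB by 0.29 and 0.19. ATF3, a stress-induced factor, had 3.43 ± 0.892 and 1.55 ± 0.423 CPM in knockdown libraries under drug and in DMSO, against 5.23 ± 1.93 and 4.60 ± 1.503 CPM in control libraries. The knockdown change of ATF3 was -0.61 under drug (SE 0.28, adjusted p = 0.1015) and -1.44 in DMSO (SE 0.295, adjusted p = 0.000266). Its drug change was 1.02 in knockdown cells (adjusted p = 0.133) and 0.185 in control cells (adjusted p = 0.892), with an interaction of 0.835 (adjusted p = 0.922). For the drug, 1 of 16 passed in each shRNA, beside 1.29% of all genes in each: ATF4 rose by 0.345 in knockdown cells and ETS1 by 0.365 in control cells. An unadjusted edgeR p under 0.05 was held by 4 of 16 in knockdown cells and 6 of 16 in control cells. Of all 12602 genes, 1316 and 1266 had one.

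Genes of mitochondrial partners and of the apoptosome had 9 tested of 11. With the knockdown, 1 rose and 2 fell under drug, and 2 rose and 2 fell in DMSO (medians -0.065 and -0.06), beside 31.1% and 31.3% of all genes. CYCS, the gene of cytochrome c, fell by 0.28 and 0.33, and VDAC1, a channel of the outer membrane, by 0.32 and 0.24. The initiator caspase gene CASP9 rose by 0.46 under drug, a call that ended with DESeq2 (adjusted p = 0.0590), and by 0.59 in DMSO. XIAP, a caspase inhibitor, rose by 0.31 in DMSO. Under drug against DMSO, 0 of 9 passed in either shRNA by the 3 tools, beside 1.29% of all genes in each by edgeR. An unadjusted edgeR p under 0.05 was held by 0 in knockdown cells and 2 in control cells, beside 1316 and 1266 of all 12602 genes.

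**Figure D4:**
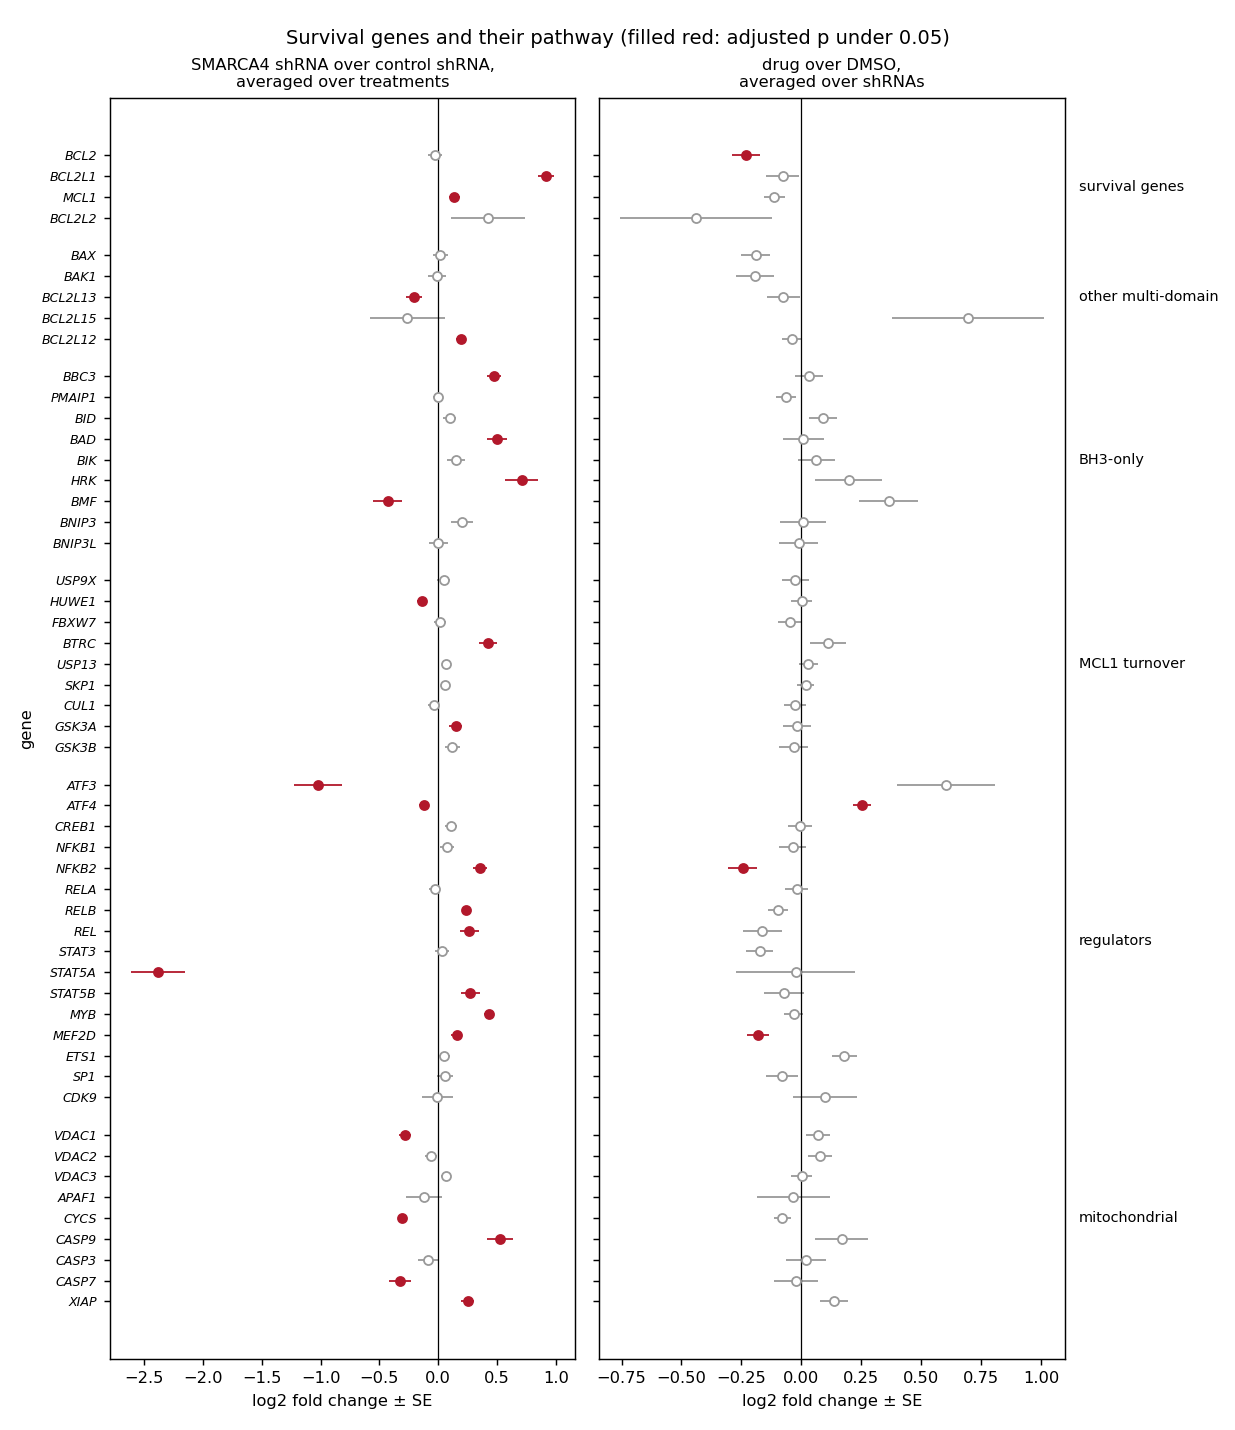
Log2 fold change ± SE of the survival genes and the 5 pathway lists, for the SMARCA4 shRNA over the control shRNA averaged over treatments (left) and the drug over DMSO averaged over shRNAs (right), filled red where the adjusted p is under 0.05, with different x scales. BCL2L1 has the highest knockdown value drawn (0.92) and STAT5A the lowest (-2.38), and BCL2, NFKB2, MEF2D and ATF4 are the called genes on the drug side.

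The genes with profiles nearest to BCL2L1 were found by the root mean square distance between log2 CPM over the 12 libraries, each profile centred on its own mean, among 8000 genes with a symbol and a mean log2 CPM of at least 3. They were KIAA1324 (distance 0.12), C1GALT1 (0.123), FOXJ2 (0.125), SLC7A5 (0.125) and MEX3A (0.126), where BCL2L1 itself varied by 0.477 around its mean. Their knockdown changes were 0.75 to 0.96 under drug and 0.82 to 1.002 in DMSO. These genes were picked by likeness to BCL2L1 over the same libraries, so alike knockdown changes follow from the selection. C1GALT1 encodes a glycosyltransferase of O-glycan synthesis, FOXJ2 a forkhead factor, SLC7A5 an amino acid transporter and MEX3A an RNA-binding protein. The nearest to BCL2 were PRKAR1A (0.054), a regulatory subunit of protein kinase A, BANP (0.085) and the mitotic kinesin gene KIF23 (0.085), where BCL2 varied by 0.138. Those nearest to MCL1 were SLC39A1 (0.057), FGD5-AS1 (0.064) and RWDD1 (0.069), where MCL1 varied by 0.12. For BCL2L2 they were ANKRD52 (0.307), GLI1 (0.318) and ZNF175 (0.319), distances not far below its own variation of 0.466.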

How the data were processed

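Gene counts, whole numbers with no normalization, were deposited by the authors as 1 table of 13820 genes and 12 libraries. Per the labels' protocols, Qiagen RNeasy RNA was turned into Lexogen QuantSeq libraries, which read 3' ends. Genome build hg19 and the tools HTSeq, HISAT2 and bcl2fastq 2.17.1.14 are given by the submitters' processing notes. Annotation release and strand setting: not given in the sources used here.

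Columns were matched to samples by name. The column naming control shRNA and replicate 1 but no treatment was taken as drug-treated, because another column names the DMSO sample. BCL2L1 levels and ratios compared under drug or between treatments in control cells are also given without it.

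Genes were kept by edgeR's filterByExpr (minimum count 10, minimum total 15), leaving 12602. All 12 libraries entered 1 quasi-likelihood model with a coefficient per group (edgeR 4.0.16, R 4.3.3, TMM scaling, 8 residual degrees of freedom, biological coefficient of variation 5.69%). Tests were two-sided, with Benjamini-Hochberg adjustment over all genes tested and a threshold of 0.05. The standard error (SE) was derived from the F statistic, so it and the 95% intervals are approximate. The procedure was tested on simulated data. Alternatives were RLE size factors, library totals, no filter, a filter at 5 CPM in 3 libraries, DESeq2 1.42.0, limma-voom (limma 3.58.1), the 2 groups alone, a replicate block, removal of ribosomal RNA rows, and leaving out each library. Profiles used log2 CPM with a prior count of 2.

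Members, gene lists and tests, including the comparisons averaged over both treatments or both shRNAs, were chosen with earlier results of these data known. Pathway genes were named by rule, up to 4 per list and comparison with the smallest adjusted p among those past the threshold, as were SMARCA4, ATF3 and the genes with the nearest profiles. BAX, BAK1, USP9X, FBXW7 and CDK9, which passed in no comparison of the reported fit, were named outside this rule. STAT5B was also named outside it, after its values were seen. 1 marker gene is not reported here. COL1A1 was named after its values were seen, and DESeq2 and limma-voom calls of pathway genes were added after seeing the data. Total counts ranged from 7279503 to 22528537 per library. Whether replicates came from separate cultures is not stated in the labels. The p-values therefore measure only the spread between these libraries, which may be technical.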

Additional observations from a re-analysis of the deposited data

How the results depend on the processing

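The rise of BCL2L1 with the knockdown kept its direction and call in 21 of 21 alternatives under drug and 21 of 21 in DMSO, and in 20 of 20 averaged over treatments. Log2 changes follow, with adjusted p in brackets where a call changed.

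Scaling by library totals gave MCL1 a called rise with the knockdown under drug, 0.201 (0.0155), and in DMSO, 0.176 (0.0323), and BCL2L2 one under drug, 1.25 (0.0498). It turned the sign of values near 0 for BCL2 with the knockdown under drug (0.0592) and averaged (0.0263), and for the MCL1 interaction (0.0251). It also moved the share of called genes that were higher to 65.0% from a main value of 47.5% for the knockdown under drug, 60.7% against 48.9% averaged, 71.4% against 57.4% for the drug in knockdown cells, 46.5% against 57.1% for the drug in control cells and 66.7% against 33.3% of 3 genes for the interaction. MCL1 in DMSO passed with the 5 CPM filter (0.164, 0.0456), limma-voom (0.168, 0.0324) and removal of ribosomal RNA rows (0.165, 0.0418). BCL2L1 for the drug in control cells was 0.000247 with the 5 CPM filter and 1.1e-05 with the 2 groups alone. The averaged fall of BCL2 was -0.233 with DESeq2 (0.0507). Genes called for the interaction numbered 3 in the reported fit, 1 with the 5 CPM filter, 4 with DESeq2, 4 with limma-voom and 0 with edgeR without ribosomal RNA rows, where 676 had an unadjusted p under 0.05. BCL2L2 had no value under the 5 CPM filter. The cause was not tested for any of these.

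Replicate numbers showed no visible pairing of the samples. The 18 pairs with the same number correlated at -0.116 to 0.082 and the 36 with different numbers at -0.094 to 0.093. In both kinds 0 were over 0.1. Whether samples shared a culture or batch cannot be told from these values. With the replicate block, MCL1 in DMSO was 0.154 (0.0489) and genes called for the knockdown numbered 3827 under drug and 3822 in DMSO.

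Leaving out each library in turn gave, for the knockdown under drug, 0.698 to 0.981 for BCL2L1 and -0.0535 to 0.0139 for BCL2. In DMSO it gave -0.111 to 0.0392 for BCL2 and 0.0818 to 0.243 for MCL1, which passed in 3 of these 12 fits: without knockdown DMSO replicate 1 (0.206, 0.0239), control replicate 3 under drug (0.163, 0.0417) or control DMSO replicate 3 (0.243, 0.00401). Averaged over treatments it gave -0.0665 to 0.00838 for BCL2 and 0.101 to 0.182 for MCL1. For the drug it gave -0.135 to 0.14 for BCL2L1 in control cells and -0.265 to -0.19 for BCL2 averaged over shRNAs. Interactions were -0.0616 to 0.0883 for BCL2 and -0.123 to 0.0375 for MCL1. Genes called were 97 to 186 for the drug in knockdown cells, lowest without knockdown DMSO replicate 3 and 104 without knockdown replicate 1 under drug, 104 to 175 in control cells, lowest without control replicate 1 under drug, and 1 to 3 for the interaction.

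Depth limits BCL2L2 most, at 3 to 17 counts per library.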
